A study of Mus musculus with 4 samples.

Results

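Cell surface receptors for vasopressin, oxytocin, acetylcholine, endothelin, tachykinins and serotonin were followed in mouse ureter as a group of 10 genes: Avpr1a, Avpr2, Oxtr, Chrm2, Chrm3, Ednra, Ednrb, Tacr1, Tacr2 and Htr2b. They act on contraction or on water handling. Probe sets were chosen by brightness: each gene was read from its brightest probe set over all 4 arrays among probe sets with exactly 1 gene symbol. Of the 10, 9 had such a probe set, each gene with 1, out of 19296 genes on the array. Ednra, the endothelin A receptor, had none and was not analysed here. The rise of Avpr1a was already known when the receptors were put together, so the values and the call of that gene are given as a description, and nothing rests on them.

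The compared groups were knockout ureter, from 2 mice aged 2.5 months that lacked both copies of miR-143 and miR-145 and had hydronephrosis (a kidney swollen with retained urine), and wild type ureter, from 2 mice aged 4.5 months with both copies and normal kidneys. All mice were male, of a mixed 129Sv and C57BL6 background, and 500 ng of total RNA per mouse went onto 1 array. Knockout mice thus differed from wild type mice in genotype, age and kidney state at once, and these cannot be told apart. The labels name no promoter or cell type that would restrict the deletion. Values are log2 expression values after RMA (robust multi-array average), so a difference of 1 is a doubling of signal.

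All of these receptors couple to G proteins. Receptors that couple to Gq, among them the vasopressin V1a, oxytocin, muscarinic M3, endothelin, tachykinin and serotonin 2B receptors, activate phospholipase C, and the resulting inositol trisphosphate releases calcium that starts smooth muscle contraction. The phosphatase inhibitor CPI-17, encoded by Ppp1r14a, holds back myosin phosphatase and so prolongs the contraction. The muscarinic M2 receptor couples to Gi, which lowers cyclic AMP, while the vasopressin V2 receptor of the renal collecting duct couples to Gs, which raises it. In the ureter, acetylcholine, tachykinins and endothelin are known to modulate the peristaltic waves that carry urine to the bladder.

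The arrays were checked before the receptors. Mir145a measured 4.60 and 5.02 in knockout and 8.28 and 8.42 in wild type ureter, and Mir143 measured 6.48 and 6.53 in knockout and 7.64 and 7.85 in wild type ureter, so both deleted genes followed the labels. Smooth muscle, urothelial and fibroblast markers were bright on all 4 arrays, as were adipocyte markers. The mean of 8 kidney tubule markers was 8.74 and 6.68 in knockout and 6.41 and 7.21 in wild type ureter, so knockout replicate 1 stood apart. A background level of log2 6.58 was taken from olfactory receptor genes, whose 95th percentile it is. Genes above it numbered 13515 and 13558 on the knockout arrays and 13838 and 14231 on the wild type arrays.

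Avpr1a, the vasopressin V1a receptor gene, was one of the bright receptor genes and by far the most different. It measured 10.91 and 11.05 in knockout and 8.97 and 9.41 in wild type ureter. Both knockout values lay well above both wild type values, and the gap between genotypes was several times the spread within either. The means were 10.98 ± 0.10 in knockout and 9.19 ± 0.31 in wild type ureter (SD, n = 2 each). The log2 difference of 1.79 (SE 0.17) equals 3.46-fold, and it ranked 14 among the rises when all 19296 genes were ordered by signed difference. Without knockout replicate 1, the library with the high kidney signal, the difference was 1.86, and with the kidney tubule mean as a covariate it was 1.78. In these bulk samples, more cells that carry the receptor and more of its RNA per cell cannot be told apart.

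**Figure D1:**
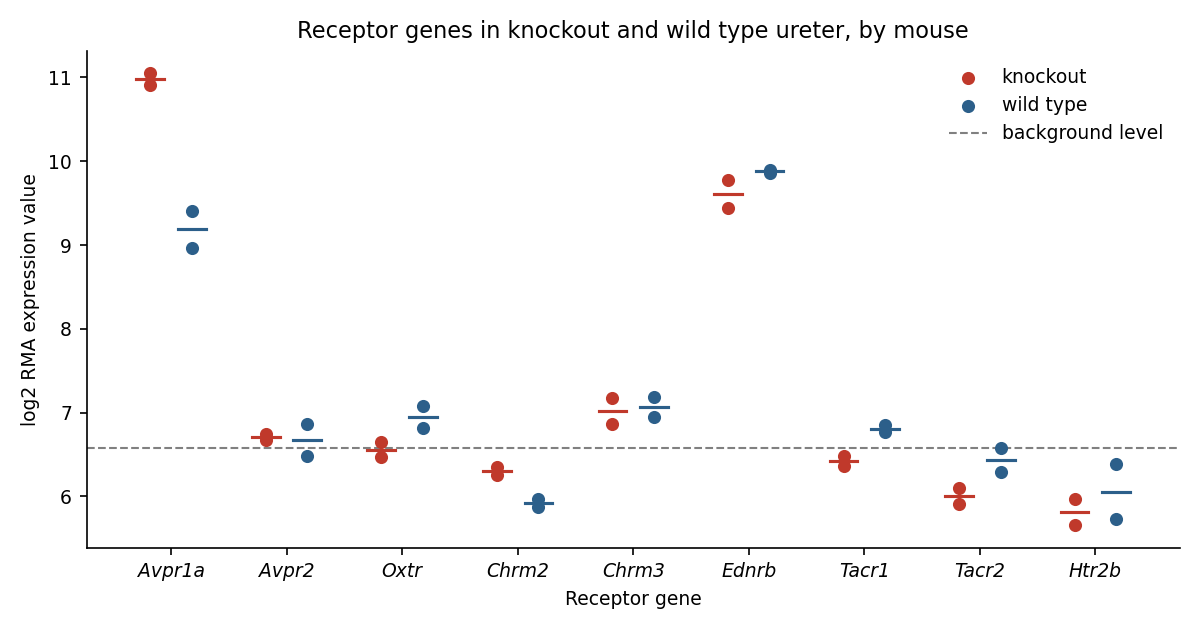
Log2 RMA expression value of each of the 9 receptor genes in every mouse, with knockout in red and wild type in blue. Points are mice, short bars are genotype means (n = 2 each) and the dashed line is the background level of 6.58. Avpr1a in knockout sits at 10.91 and 11.05, above its wild type values of 8.97 and 9.41, while the other receptor genes differ by under 0.5.

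The promoters of 3 genes for neurohypophysial hormone receptors are shown because Avpr1a stood far apart between genotypes while its relatives Oxtr and Avpr2 did not pass the test. Avpr1b, the vasopressin V1b receptor gene, is a further relative whose promoter is not shown. It was tested among the other subtypes, lay near or below background and did not pass either (difference -0.42, limma adjusted p = 0.101). Each runs from 250 bases before to 50 after the gene's start in RefSeq, build GRCm38.p6, 5′ to 3′ on the strand of the gene. Avpr1a lies at chr10:122448249-122448548 on the plus strand, Oxtr at chr6:112489776-112490075 on the minus strand and Avpr2 at chrX:73891852-73892151 on the plus strand. Capitals mark matches, on either strand, to TATAAA, to the GC box GGGCGG or to the E-box CACGTG.
Avpr1a: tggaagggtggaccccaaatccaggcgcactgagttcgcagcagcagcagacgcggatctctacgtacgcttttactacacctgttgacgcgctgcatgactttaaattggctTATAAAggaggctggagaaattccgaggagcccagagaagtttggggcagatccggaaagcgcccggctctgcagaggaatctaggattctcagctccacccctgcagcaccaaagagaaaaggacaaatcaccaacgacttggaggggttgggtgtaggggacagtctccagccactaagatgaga
Oxtr: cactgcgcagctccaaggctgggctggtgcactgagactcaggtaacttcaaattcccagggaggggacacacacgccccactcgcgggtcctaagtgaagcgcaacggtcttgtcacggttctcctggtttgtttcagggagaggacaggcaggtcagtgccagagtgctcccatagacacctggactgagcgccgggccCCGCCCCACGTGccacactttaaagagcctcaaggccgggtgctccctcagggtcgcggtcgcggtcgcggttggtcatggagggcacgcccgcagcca
Avpr2: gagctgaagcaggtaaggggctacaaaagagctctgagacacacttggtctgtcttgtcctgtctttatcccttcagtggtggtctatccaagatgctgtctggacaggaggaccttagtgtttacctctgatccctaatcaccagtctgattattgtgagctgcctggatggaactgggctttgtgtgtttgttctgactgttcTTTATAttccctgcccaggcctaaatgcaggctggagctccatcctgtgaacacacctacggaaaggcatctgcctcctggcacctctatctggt

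The Avpr1a window held TATAAA once, beginning 137 bases before the start. The Avpr2 window held it on the opposite strand, with its first base 45 bases before the start, and the Oxtr window held a GC box on the opposite strand that is followed directly, without overlap, by an E-box. TATAAA occurs in 13.6% of 32851 promoters of 300 bases, GGGCGG in 35.7% and CACGTG in 7.15%. The CArG box, the binding motif of serum response factor in many smooth muscle genes, was searched on both strands too. It occurs in 1.63% of promoters and in 0 of the 9 receptor windows. All 9 measured receptor genes had a promoter entry. These matches describe letters in a window only.

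Oxtr, the oxytocin receptor gene, measured 6.46 and 6.65 in knockout and 6.82 and 7.07 in wild type ureter. The groups did not overlap, but 1 knockout value lay below background and the other only just above it. Its difference of -0.39 (SE 0.14) did not pass (limma adjusted p = 0.136). Avpr2, the receptor through which vasopressin acts on collecting duct water channels, measured 6.75 and 6.67 in knockout and 6.48 and 6.86 in wild type ureter. These values overlapped and lay within 0.3 of background. The difference was 0.04 (95% confidence interval -0.32 to 0.40, limma adjusted p = 0.896). Kidney tubule markers were higher in the knockout mean for 8 of 8 genes and collecting duct markers for 5 of 7. The groups overlapped for 7 of the tubule genes and 3 of the collecting duct genes. The tubule list mean was 6.68 in knockout replicate 2, below the 7.21 of wild type replicate 2. The collecting duct list mean was 8.76 and 8.67 in knockout and 8.35 and 8.62 in wild type ureter, while its water channel genes differed in sign. Aqp2 measured 7.54 and 7.40 in knockout and 7.65 and 7.95 in wild type ureter, and Aqp3, which urothelium also carries, measured 12.11 and 12.51 in knockout and 11.49 and 11.90 in wild type ureter. Aqp3, Scnn1b and Scnn1g differed by 0.62, 0.52 and 0.70, within the 0.38 to 0.77 of the urothelial markers. Hsd11b2 and Fxyd4 differed by 0.20 and 0.10, and Aqp2 and Atp6v1g3 by -0.34 and -0.19. How far this list reads collecting duct cells was not tested. The kidney tubule list mean was highest in knockout replicate 1, at 8.74. Avpr2, at 6.75 there, lay too near background to show whether it followed.

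The muscarinic receptors are the targets of acetylcholine from parasympathetic nerves. Chrm3, whose product drives contraction in many smooth muscles, measured 6.86 and 7.17 in knockout and 7.18 and 6.95 in wild type ureter, slightly above background on every array. The groups overlapped and the difference was -0.05 (95% confidence interval -0.41 to 0.31, limma adjusted p = 0.861). Chrm2 measured 6.25 and 6.36 in knockout and 5.87 and 5.97 in wild type ureter. Both knockout values exceeded both wild type values, with a difference of 0.39 (limma adjusted p = 0.104), but all 4 values lay below background, so no fold is given.

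Ednrb, the endothelin B receptor gene, was the other bright member. It measured 9.78 and 9.44 in knockout and 9.90 and 9.86 in wild type ureter. The knockout values were lower without overlap, and the knockout mice differed from each other by more than the nearer one differed from wild type. The difference was -0.27 (SE 0.14, 95% confidence interval -0.61 to 0.07) and did not pass (limma adjusted p = 0.271). It was -0.44 without knockout replicate 1 and -0.10 without knockout replicate 2, and passed in neither case (adjusted p = 0.132 and 0.803).

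Tachykinin receptors respond to substance P and neurokinin A, peptides released from sensory nerve endings. Tacr1, the preferred receptor of substance P, measured 6.37 and 6.48 in knockout and 6.77 and 6.85 in wild type ureter, below background in knockout and just above it in wild type. The bound on its fold was at least 1.18-fold lower in knockout, which did not pass (limma adjusted p = 0.103). Tacr2, the preferred receptor of neurokinin A, measured 6.11 and 5.91 in knockout and 6.29 and 6.58 in wild type ureter. All but 1 wild type value lay below background. Its groups did not overlap, and its difference of -0.43 did not pass (limma adjusted p = 0.126). Htr2b, the serotonin 2B receptor gene, measured 5.66 and 5.97 in knockout and 5.73 and 6.39 in wild type ureter, below background throughout and overlapping (difference -0.25, 95% confidence interval -0.78 to 0.28, limma adjusted p = 0.511).

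Across the 9 receptor genes, 3 were higher and 6 lower in knockout, with a median log2 difference of -0.25, against -0.02 over all genes. In limma's fit across all genes, 1 member lay past an adjusted p of 0.05 and was higher, namely Avpr1a, and 0 were lower; over all genes 1.9% were called higher and 0.477% lower. Nothing is read from this count, because the members were chosen with that result known. Counting unadjusted p-values under 0.05, 2 members were higher and 3 lower, where 12.7% of all genes were higher and 13.8% lower at that threshold. With either wild type mouse left out, the Avpr1a call did not hold, and each such fit rests on 1 wild type mouse. The Avpr1a difference was 1.57 without wild type replicate 1 and 2.01 without wild type replicate 2. With the arrays centred on their medians, the share of higher genes among all calls was 62.3%, against 80% without centring. Both knockout values lay above both wild type values for 2 members and below them for 4, where 28% and 32% of all genes did so.

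**Figure D2:**
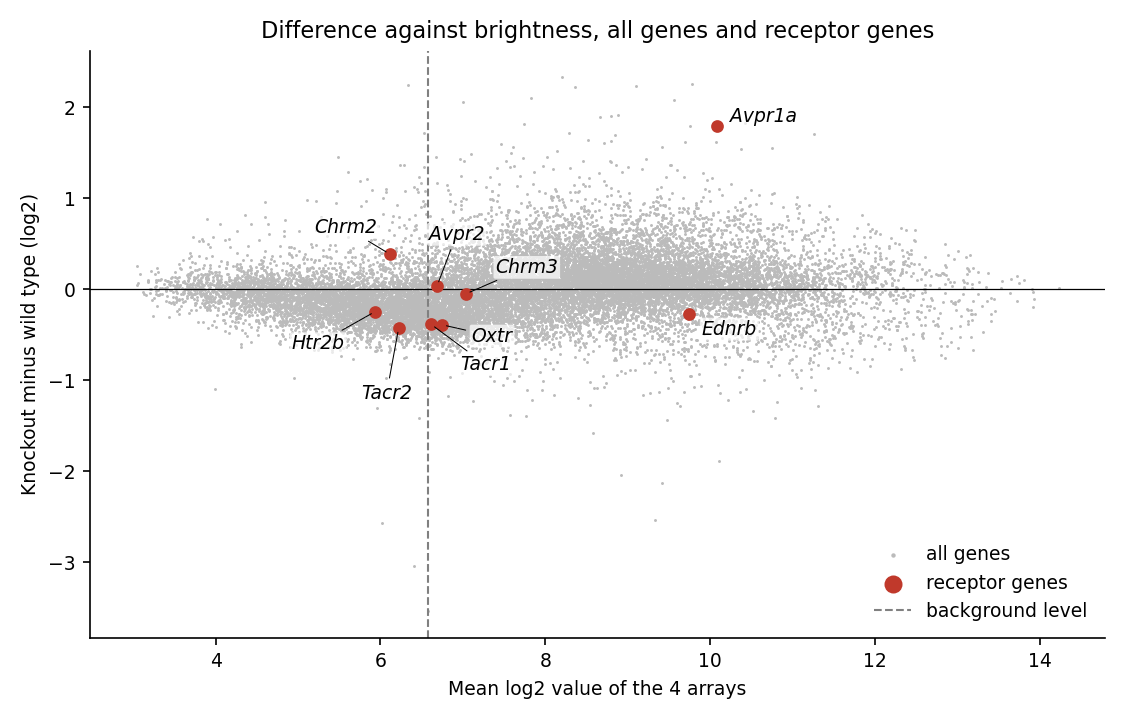
Knockout minus wild type difference (log2) against the mean log2 value of the 4 arrays, with all 19296 genes in grey and the 9 receptor genes in red. The dashed line is the background level of 6.58. Avpr1a stands at 1.79 among bright genes, Ednrb at -0.27 beside it, and the other 7 receptor genes lie near or below background inside the cloud.

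Apart from Avpr1a and Ednrb, the receptor genes were dim, and dim genes as a whole read lower in knockout. Of 5903 genes with a mean level between 5.5 and 7.5, the range that holds these 7, both knockout values were the lower for 51% and the higher for 12.5%. The median difference of these genes was -0.17, and 5 and 95% of them lay under -0.50 and 0.415. The differences of Oxtr, Tacr1, Tacr2, Htr2b, Chrm2, Chrm3 and Avpr2, between -0.43 and 0.39, all fell within these limits. How much of each difference belongs to this shift of dim genes was not tested. Among 4773 genes with a mean level between 9 and 11, the corresponding limits were -0.45 and 0.67. Ednrb at -0.27 lay within them and Avpr1a at 1.79 outside.

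The remaining subtypes of the same receptor families were also mostly dim. Of the 7 tested, 1 was higher and 6 lower, with a median of -0.36, and limma called 0; of unadjusted p-values under 0.05, 1 belonged to a higher gene and 4 to lower ones (12.7% and 13.8% of all genes). Htr2a, the serotonin 2A receptor of vascular smooth muscle, measured 7.93 and 7.96 in knockout and 7.54 and 7.56 in wild type ureter. Its difference of 0.40 did not pass (limma adjusted p = 0.0927). Chrm1, the muscarinic M1 receptor gene, measured 7.47 and 7.34 in knockout and 7.81 and 7.90 in wild type ureter, a difference of -0.45 (limma adjusted p = 0.0823). Chrm4 differed by -0.36 (limma adjusted p = 0.195).

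Ligands and the proteins that make or clear them showed no call in the comparison of all 4 mice. Of 19 tested, 4 were higher and 15 lower, with a median of -0.23. Limma called 0, and unadjusted p-values under 0.05 went to 0 higher and 5 lower genes (12.7% and 13.8% of all genes). Tac4, which encodes hemokinin, a ligand of the tachykinin receptors, measured 6.01 and 5.90 in knockout and 6.51 and 6.68 in wild type ureter. Both knockout values and wild type replicate 1 lay below background. On the bound, Tac4 was at least 1.01-fold lower in knockout, which did not pass (limma adjusted p = 0.0521). It was called lower under 7 of 14 alternatives, among them centred arrays, robust eBayes and the looser threshold of 0.1. Slc18a3, the vesicular transporter for acetylcholine, measured 6.77 and 6.91 in knockout and 7.19 and 7.44 in wild type ureter (limma adjusted p = 0.0938). Mme, or neprilysin, a membrane peptidase that degrades endothelin and tachykinins, lay far above background. It measured 11.05 and 10.68 in knockout and 11.64 and 11.24 in wild type ureter, a difference of -0.58 (SE 0.18) that did not pass (limma adjusted p = 0.111).

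The chain from Gq to calcium and to myosin phosphatase comprised 28 tested genes, with 21 higher, 7 lower and a median of 0.08. Limma called 1 higher, and the other 27 fell short of the threshold, where 1.9% of all genes were called higher and 0.477% lower. Unadjusted p-values under 0.05 went to 3 higher and 2 lower genes (12.7% and 13.8% of all genes). Ppp1r14a measured 10.23 and 10.47 in knockout and 9.60 and 9.51 in wild type ureter, without overlap. It rose 1.74-fold, a log2 difference of 0.80 (SE 0.13, limma adjusted p = 0.0394). Quantile normalization of the deposited values ended this call (adjusted p = 0.0609), and so did the fits without knockout replicate 2 (adjusted p = 0.054) or with either wild type mouse left out (adjusted p = 0.183 and 0.229). Of 8 smooth muscle markers 7 were also higher, with differences between -0.30 and 0.49. In these bulk samples, more cells that carry Ppp1r14a and more of its RNA per cell cannot be told apart. Itpr3, an inositol trisphosphate receptor of the endoplasmic reticulum, measured 9.78 and 9.80 in knockout and 9.13 and 9.37 in wild type ureter, a difference of 0.54 (limma adjusted p = 0.071). Gna14, a G protein alpha subunit of the Gq class, differed by 0.46 (limma adjusted p = 0.0874). Itpr2, a relative of Itpr3 chosen here after its values were seen, stood at the other end with 9.99 and 9.37 in knockout and 10.58 and 10.27 in wild type ureter (difference -0.75, limma adjusted p = 0.0954).

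Gi and Gs proteins, adenylyl cyclases and the regulators that end receptor signalling held 20 tested genes, 12 higher and 8 lower, with a median of 0.03. Limma called 0, and unadjusted p-values under 0.05 went to 1 higher and 2 lower genes (12.7% and 13.8% of all genes). Adcy2, an adenylyl cyclase, measured 7.65 and 7.38 in knockout and 6.97 and 6.98 in wild type ureter (limma adjusted p = 0.0737). Adcy3, another cyclase, measured 9.41 and 8.84 in knockout and 9.60 and 9.71 in wild type ureter (limma adjusted p = 0.143). Grk3, a kinase that phosphorylates active receptors, differed by -0.42 (limma adjusted p = 0.159).

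**Figure D3:**
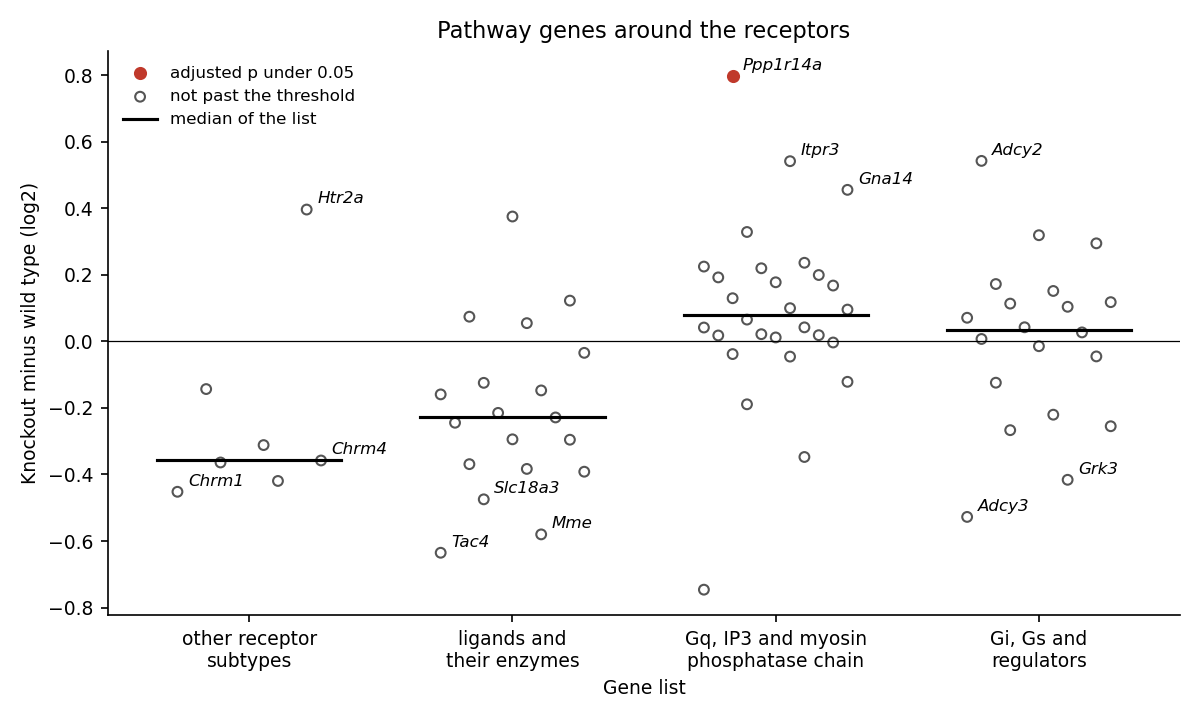
Knockout minus wild type difference (log2) of each tested gene in 4 lists around the receptors. Filled points passed a limma adjusted p of 0.05, open points did not, and bars are list medians. Ppp1r14a at 0.80 is the filled point, and the other subtypes (median -0.36) and the ligand list (median -0.23) lie mostly under 0.

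Markers of several cell types were higher beside Avpr1a. The endothelial, adipocyte and nerve and glia lists were not, with mean differences of -0.17, -0.53 and -0.04. All 8 smooth muscle markers lay above background, 7 were higher in knockout, and their differences ran between -0.30 and 0.49. All 10 urothelial markers were higher, by 0.38 to 0.77, and all 8 fibroblast markers were higher, by 0.09 to 1.70. Of the fibroblast markers 3 were past the threshold, where 1.9% of all genes were called higher. Bright genes leaned the same way. At mean levels between 9 and 11, both knockout values were the higher for 42.4% of genes and the lower for 19.3%. Several of these markers are brighter still. The smooth muscle list mean was 11.76 and 11.60 in knockout and 11.48 and 11.40 in wild type ureter, and the fibroblast list mean was 11.11 and 11.28 in knockout and 10.52 and 10.57 in wild type ureter. The urothelial list mean was 12.01 and 12.41 in knockout and 11.49 and 11.75 in wild type ureter. Lum had the largest difference in these 3 lists, 1.70 (SE 0.16), close to the 1.79 (SE 0.17) of Avpr1a. In the kidney tubule list, Kap differed by 1.90, with overlapping values of 11.42 and 7.81 in knockout and 6.19 and 9.25 in wild type ureter. The part of these cell types in the Avpr1a result was not tested.

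Endothelial, adipocyte and glial markers were set beside Ednrb, a receptor that endothelium and glia carry. The smooth muscle, urothelial and fibroblast lists went the other way, with mean differences of 0.24, 0.59 and 0.65. Endothelial markers were higher for 1 and lower for 7 of 8 genes, with list means of 10.45 and 10.21 in knockout and 10.45 and 10.54 in wild type ureter. Adipocyte markers were lower for 7 of 7, with list means of 12.45 and 11.93 in knockout and 12.78 and 12.67 in wild type ureter. Knockout replicate 2 was the lowest array for both lists, as it was for Ednrb. Nerve and glia markers, with 5 of 8 genes measured, had list means of 8.23 and 8.22 in knockout and 8.26 and 8.27 in wild type ureter. These genes did not move together: 2 were higher and 3 lower, with a mean difference of -0.04 and a median of -0.23. Knockout replicate 2 was the lowest array for S100b, at 7.68, but the highest for Uchl1, at 9.28. The part of these cell types in the Ednrb values was not tested.

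**Figure D4:**
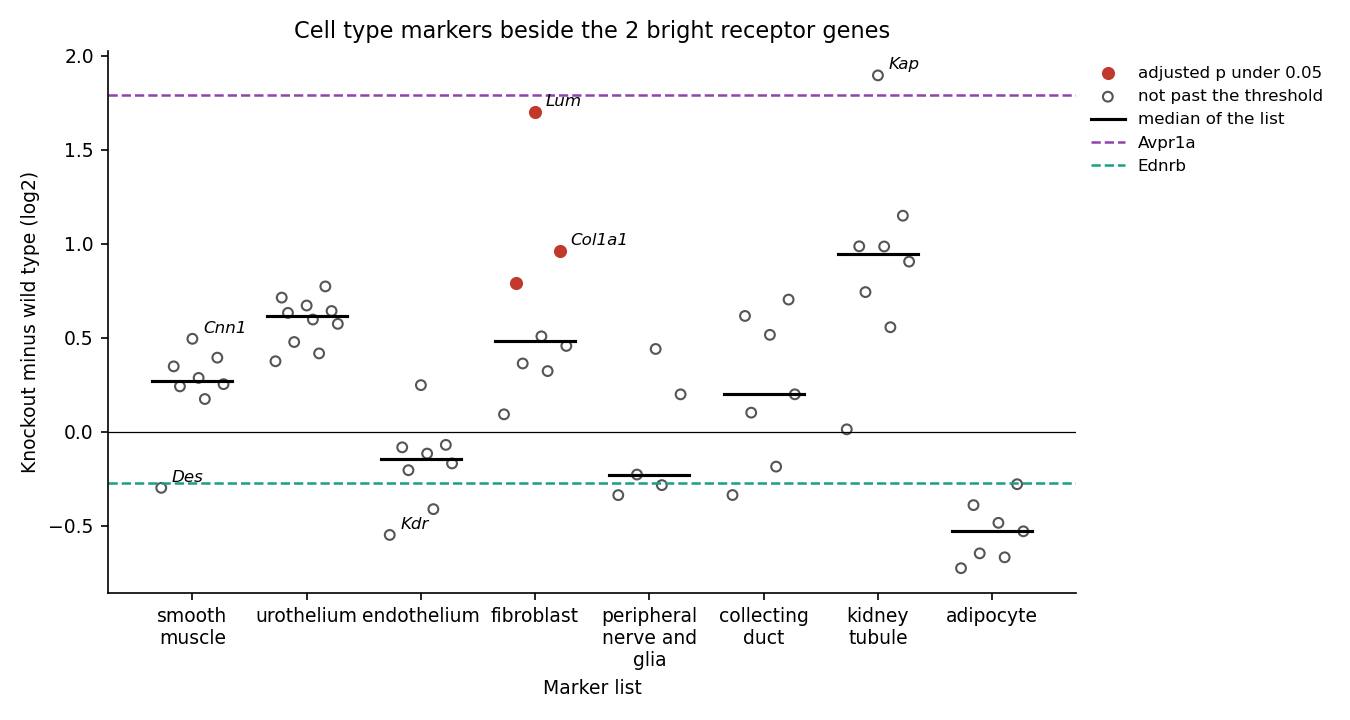
Knockout minus wild type difference (log2) of each marker gene in 8 cell type lists, with list medians as bars and points filled where the limma adjusted p was under 0.05. Dashed lines mark Avpr1a at 1.79 and Ednrb at -0.27. Every smooth muscle, urothelial and fibroblast marker lies under the Avpr1a line, with Lum nearest at 1.70. The kidney tubule marker Kap lies above that line at 1.90. Ednrb lies near the nerve and glia median of -0.23, between the endothelial median of -0.14 and the adipocyte median of -0.53. Nerve and glia genes point both ways, and the smooth muscle, urothelial and fibroblast medians are positive.

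The genes whose pattern came closest to Avpr1a were found by centring each gene on its own mean and taking the root mean square distance over the 4 arrays, among genes above background in both genotypes. The nearest was Tnc, the matrix glycoprotein tenascin C, at a distance of 0.0441. It measured 11.22 and 11.44 in knockout and 9.32 and 9.69 in wild type ureter. Adamdec1, a secreted metalloprotease, followed at 0.104, with 9.02 and 9.28 in knockout and 7.09 and 7.77 in wild type ureter. Armh4 and the thrombospondin gene Thbs2 both stood at 0.145, and Hhip, a hedgehog-binding protein, at 0.15. With 4 arrays these distances only describe a shared gap between genotypes and a like spread within them.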

How the data were processed

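Ureter RNA of 4 mice was labelled for an Affymetrix whole-transcript array, 1 array per mouse, per the labels' protocols. The deposited values are log2 expression values of 23309 probe sets; per the submitters' processing notes, the tools were RMA with R 2.15.0 and limma 3.12.1. RMA makes the arrays' distributions alike and so shrinks any shift common to most genes. The build used for the probe sets was not given in the sources used here. The platform annotation gave 1 symbol to 20728 probe sets, several to 1174 and none to 1407; only the first kind was used. The brightest probe set of each gene left 19296 genes, with no filter.

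The genotypes were compared with limma 3.58.1 in R 4.3.3 (lmFit, eBayes), and p-values were adjusted over all genes (Benjamini-Hochberg) with a threshold of 0.05; SE and 95% confidence intervals are its moderated ones. Where both arrays of 1 genotype lay below the background level (the 95th percentile of 1024 olfactory receptor genes' mean levels), a fold is a lower bound, computed with each dim array raised to at least that level. The precision is limited by 2 mice per genotype, and arrays have no counting depth.

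The receptors and the gene lists were chosen with earlier results of these data known. Of 80 genes in the 4 pathway lists 74 were tested. Named genes are all receptors, the genes past the threshold and the 3 of smallest p above background in each pathway list, and the 5 with the profile nearest to Avpr1a. Avpr1b was named as a relative of Avpr1a, and Itpr2 after its values were seen. Alternatives were a replicate block, a further quantile normalization, median centring, averaging all probe sets per gene, a filter on dim genes, an intensity trend, robust eBayes, array weights, the kidney tubule mean as covariate, a threshold of 0.1 and leaving out each mouse. Promoter sequences are from RefSeq, build GRCm38.p6.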

Additional observations from a re-analysis of the deposited data

How the results depend on the processing

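The Avpr1a difference lay between 1.57 and 2.01 over the 14 alternatives. It stayed at 1.79 with a replicate block, averaged probe sets, dim genes left out or an intensity trend. Robust eBayes, array weights and the looser threshold also left it there. None of these alters the values of a gene with 1 probe set, so its sign there shows nothing. A further quantile normalization gave 1.75 and centred arrays 1.72. Leaving out wild type replicate 1 gave 1.57 and leaving out wild type replicate 2 gave 2.01, and its call held in neither fit. Those fits rest on 1 wild type mouse, assumed to vary like the knockout mice. No other receptor passed under any alternative that tested it; with dim genes left out, Chrm2, Tacr2 and Htr2b were not tested. Avpr2 changed sign with centred arrays (-0.0305) and with the kidney tubule covariate (-0.0477), and ranged from -0.15 to 0.23 when 1 mouse was left out. Chrm3 changed sign with a further quantile normalization (0.0368) and with the covariate (0.102), and ranged from -0.20 to 0.10 when 1 mouse was left out, where Htr2b ranged from -0.58 to 0.0842. The cause was not tested.

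Replicate numbers did not pair the mice: across genes, the deviations of same-numbered mice correlated at -0.028. Counts over all genes, 367 higher and 92 lower, moved with the model: 1164 higher and 758 lower with a replicate block, 164 and 50 with a further quantile normalization, 655 and 247 with robust eBayes, 936 and 514 with the covariate, and 1317 and 982 at a threshold of 0.1. With centred arrays 148 were lower, and with dim genes left out 147. Leaving out 1 mouse gave 0 to 1115 higher and 0 to 629 lower. For the 4 pathway lists together, against 1 higher and 0 lower, 3 were higher and 4 lower with a replicate block, 0 higher with a further quantile normalization, and 5 higher and 4 lower at a threshold of 0.1. Lower calls there numbered 1 with centred arrays, 1 with dim genes left out and 1 with robust eBayes, each time Tac4, and 3 with the covariate, where Tac4, Itpr2 and Adcy3 were called. Leaving out 1 mouse gave 0 to 1 higher and 0 to 5 lower, the highest without knockout replicate 1. Signals near background limit what can be said of the dim receptors.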
